A study of Xenopus tropicalis with 44 samples.

Results

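The effect of an E2F1 morpholino added to an OTX1 morpholino was followed at stage 7 in Xenopus tropicalis, the western clawed frog, by mRNA sequencing of whole embryos. Embryos injected with both morpholinos (double MO) were set against embryos injected with the OTX1 morpholino alone (OTX1 MO), so that the OTX1 morpholino is common to both groups. The comparison holds 4 of the 44 mRNA libraries, 2 per group, taken by the stage and treatment in the labels. Other libraries used here are double MO and OTX1 MO embryos of stage 8, embryos with the E2F1 morpholino alone (E2F1 MO) and untreated embryos (WT) of stages 3 to 8, WT embryos of stage 9, and E2F1 rescue embryos of stages 6, 7 and 8, which received E2F1 mRNA with the E2F1 morpholino. No group received a control morpholino. Whether replicates come from different clutches is not stated in the labels. Clutch and treatment therefore cannot be told apart. The spread behind each p-value, taken between replicate libraries of all 22 groups together, may be technical.

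E2F1 is a transcription factor that binds DNA as a dimer with a DP protein, is held in check by pocket proteins of the retinoblastoma family, and is known for switching on genes of DNA replication and the cell cycle. Otx1 is a homeodomain transcription factor of head development. At stage 7 the frog embryo is still cleaving, most of its mRNA was stored in the egg, and the broad activation of the zygotic genome is yet to come. The title of the series places both factors among the maternal regulators of the minor zygotic transcription that precedes it. A morpholino is a synthetic antisense oligomer that blocks the translation or splicing of its target.

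The 4 libraries held 26534049 and 24879306 counts in double MO embryos, and 30342536 and 26480286 counts in OTX1 MO embryos. The 44 libraries ranged from 9266513 to 37174326 counts. All 10 early embryo markers were present, with summed levels of 3333 and 3444 CPM (the count scaled to library size) in double MO and 3327 and 3467 CPM in OTX1 MO libraries. Of 38 genes of adult blood, liver and ovarian follicle, 25 and 27 were at 0 in double MO and 27 and 26 in OTX1 MO libraries, with summed levels of 41.0 and 34.7 CPM against 41.2 and 45.2 CPM. In RNA of whole embryos, fewer cells of a type and less RNA per cell cannot be told apart.

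The pair of double MO libraries stood apart in their spread. The median gene differed by 0.119 on the log2 scale between the 2 double MO libraries, against 0.0584 between the OTX1 MO libraries and 0.0436 to 0.0682 in the other groups of stages 7 and 8 compared here. The difference ran with gene length. Over 9302 genes, the log2 difference of double MO replicate 2 from replicate 1 had a Spearman correlation of -0.502 with gene length, against -0.0354 in the OTX1 MO pair, as a description across genes. Genes of up to 1835 bases, the lower quartile of length, had a median difference of 0.106, and genes of 4477 bases or more, the upper quartile, one of -0.135, between replicate 2 and replicate 1 of double MO. Some counts of calls between double MO and OTX1 MO at stage 7 moved by more than 1.5 times when a library was left out. They are given with those values, except for gene lists without calls. A fit without a library leaves 1 in its group, so a change is measured less well there. A lost call alone therefore does not show that a change rested on that library. Counts of genes shared with other comparisons, and gene-list counts in other comparisons, were not recounted with a library left out.

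The mRNA levels of e2f1 and otx1 come first. For e2f1 the double MO libraries held 400.2 and 349 CPM, and the OTX1 MO libraries 411 and 428 CPM. The double MO libraries were both the lower, with a log2 change of -0.16 ± 0.10 (SE) that was not called (edgeR adjusted p = 0.486). For otx1, targeted in both groups, levels were 167 and 208 CPM in double MO and 165 and 170.1 CPM in OTX1 MO embryos. The change of 0.16 ± 0.09 was not called (edgeR adjusted p = 0.393) and turned on double MO replicate 2, the highest library, since it was -0.01 without that library and 0.31 without double MO replicate 1 (edgeR adjusted p = 0.0341). Because a morpholino acts on translation or splicing, these levels do not measure the knockdown.

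Of 16064 tested genes, 601 (3.74%) differed between double MO and OTX1 MO embryos (edgeR's quasi-likelihood test, adjusted p under 0.05). In double MO embryos 264 of them were higher (1.64% of the genes tested) and 337 lower (2.1%). The spread in this test was shared over all 22 groups and is not that of these 4 libraries. It may be too small for the noisier double MO pair. With the 4 libraries alone in the fit, 161 genes were called. Most of the 601 changes were small. The median size was 0.401 on the log2 scale for genes that rose, which is 1.32-fold, and 0.352 for genes that fell, which is 1.28-fold. A change of 2-fold or more was seen in 9 genes that rose and 24 that fell. In all 601 genes the 2 groups did not overlap, which was also so for 42.2% of all genes tested, called or not. The genes that rose were shorter than those that fell, with median lengths of 1985 and 3956 bases, against 2631 for all genes tested.

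The number of calls turned on single libraries. It was 172 without double MO replicate 2 and 1270 without double MO replicate 1, and 194 and 204 without OTX1 MO replicates 1 and 2. Without double MO replicate 2 the median lengths of genes that rose and fell were 2181 and 3012 bases. Whichever of the 4 libraries was left out, 96 genes kept their call and direction, 37 higher and 59 lower. With total counts alone as scaling, the number was 593 but 64.1% of the calls were higher, against 43.9% with TMM scaling. The median shift of a gene's log2 change was 0.0432, and the median log2 change over all genes went from 0 to 0.0351.

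The firmest group was a set of genes that differed between E2F1 MO and WT embryos in early cleavage. At each of stages 3, 4 and 5, 48 genes were lower and 128 higher in E2F1 MO than in WT embryos, in libraries that this comparison does not use (4.3%, 0.977% and 1.57% of all genes were lower at the 3 stages, and 3.26%, 2.16% and 1.67% higher). Of the 48 genes, 30 were lower and 0 higher in double MO than in OTX1 MO embryos at stage 7, where 2.1% of all tested genes were lower. Their median log2 change was -0.319, against 0 over all genes. Their summed level was 4099 and 4187 CPM in double MO embryos, against 5313 and 5277 CPM in OTX1 MO embryos. At stage 7 the sum was also 4148 and 4152 CPM in E2F1 MO embryos, against 5382 and 5361 CPM in WT embryos. The libraries of both groups with the E2F1 morpholino thus lay below those of both groups without it, with no overlap. The count was 27 or 28 whichever of the 4 libraries was left out.

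Of the 128 genes higher in E2F1 MO embryos in early cleavage, 23 rose and 0 fell in double MO embryos at stage 7, where 1.64% of all genes rose. Their median log2 change was 0.0897, and their summed levels were 13666 and 13305 CPM in double MO against 12881 and 12685 CPM in OTX1 MO embryos. The count was 12 without double MO replicate 2 and 13 without OTX1 MO replicate 1, 24 without double MO replicate 1 and 15 without OTX1 MO replicate 2. In the fit without double MO replicate 1, 2 of the 128 genes were called lower.

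**Figure D1:**
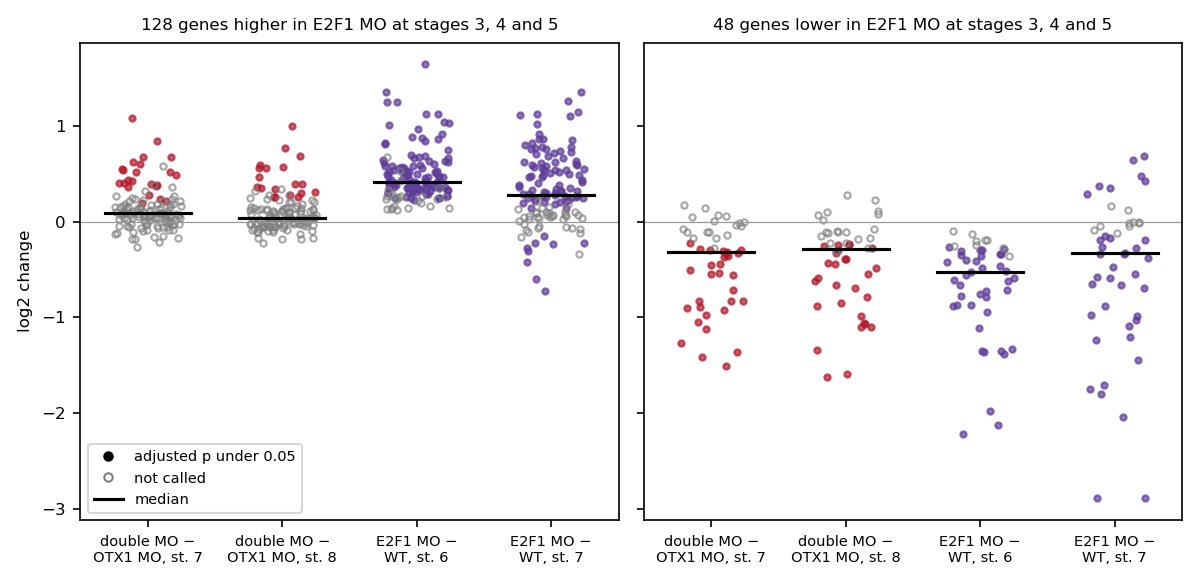
Log2 change of 128 genes higher (left panel) and 48 genes lower (right panel) in E2F1 MO than in WT embryos at each of stages 3, 4 and 5, in double MO minus OTX1 MO at stages 7 and 8 and in E2F1 MO minus WT at stages 6 and 7. Each point is a gene, filled where edgeR's adjusted p was under 0.05 and open otherwise, and the black line is the median. In double MO minus OTX1 MO at stage 7, 30 genes of the right panel were called and all 30 were below 0, and 23 genes of the left panel were called and all 23 were above 0.

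Among the 48 genes, arpc3, a subunit of the Arp2/3 complex that nucleates branched actin filaments, was at 3.91 and 4.08 CPM in double MO and at 11.7 and 11.1 CPM in OTX1 MO embryos. The double MO libraries held 35.0% of the OTX1 MO level, a log2 change of -1.51 ± 0.15 (SE; edgeR adjusted p = 1.33e-09). The gene tmem203, which encodes a transmembrane protein, was at 6.46 and 7.88 CPM in double MO and at 17.9 and 20.2 CPM in OTX1 MO embryos, a log2 change of -1.41 ± 0.16 (edgeR adjusted p = 4.09e-08). For cops6, a subunit of the COP9 signalosome that regulates ubiquitin ligases, levels were 10.4 and 12.2 CPM in double MO and 29.2 and 28.9 CPM in OTX1 MO embryos (-1.36 ± 0.14, edgeR adjusted p = 1.87e-08). In all 3 genes each double MO library lay under each OTX1 MO library by a wide margin compared with the gap between replicates.

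The gene polr3d, a subunit of the RNA polymerase that makes 5S and transfer RNA, was at 7.86 and 10.1 CPM in double MO against 22.3 and 21.02 CPM in OTX1 MO embryos (-1.27 ± 0.13, edgeR adjusted p = 6.92e-09). The actin-severing protein gelsolin, gsn, was at 31.8 and 37.02 CPM in double MO against 73.2 and 76.8 CPM in OTX1 MO embryos (-1.13 ± 0.16, edgeR adjusted p = 7.39e-05). The chaperonin subunit tcp1, part of the complex that folds actin and tubulin, had the smallest p of all genes, with 92.0 and 102.4 CPM in double MO against 198 and 206 CPM in OTX1 MO embryos (-1.05 ± 0.08, edgeR adjusted p = 1.27e-12). In each of these 3 genes both double MO libraries lay well below both OTX1 MO libraries. The arginine sensor castor1 (-0.92 ± 0.12), the mitochondrial RNA-binding protein grsf1 (-0.91 ± 0.08) and the kinase plk3 (-0.83 ± 0.08) fell by less (edgeR adjusted p of 8.38e-07, 2.93e-11 and 6.02e-10). All 9 genes kept their call whichever of the 4 libraries was left out.

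Further members of the 48 were chosen after their values were seen. The histone chaperone nap1l1 was at 286 and 309 CPM in double MO against 430.5 and 431 CPM in OTX1 MO embryos. The chromatin protein rbbp7 was at 49.4 and 55.8 CPM in double MO against 96.7 and 90.4 CPM in OTX1 MO embryos, and the metalloprotease bmp1 at 48.8 and 52.0 CPM against 86.5 and 92.6 CPM. Their log2 changes were -0.53 ± 0.06, -0.83 ± 0.08 and -0.83 ± 0.07 (edgeR adjusted p of 7.94e-08, 2.83e-09 and 5.98e-12). Of the 48, 18 were not called, among them the mitotic kinesin kif11 at 98.8 and 90.5 CPM in double MO against 97.2 and 83.5 CPM in OTX1 MO embryos (0.07 ± 0.07, edgeR adjusted p = 0.737), whose groups overlapped.

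Among the 128 genes, c12orf73, which in human encodes a small mitochondrial protein, was at 10.1 and 10.2 CPM in double MO against 4.49 and 5.098 CPM in OTX1 MO embryos (1.08 ± 0.19, edgeR adjusted p = 2.88e-04). The spectrin gene sptan1, a membrane skeleton protein, was at 147 and 135 CPM in double MO against 77.8 and 79.1 CPM in OTX1 MO embryos (0.84 ± 0.11, edgeR adjusted p = 6.28e-06). The gene snapc4, a subunit of the complex that starts transcription of small nuclear RNA, was at 39.0 and 40.7 CPM in double MO against 23.7 and 26.1 CPM in OTX1 MO embryos (0.68 ± 0.10, edgeR adjusted p = 8.06e-06). The double MO libraries were close to each other in all 3 genes and well above both OTX1 MO libraries, and the 3 calls held whichever library was left out. In E2F1 MO against WT at stage 7, c12orf73 and the immediate early gene fos were called lower, by log2 changes of -0.59 and -0.31. For sptan1 and snapc4 the comparisons were not called in opposite directions. Beside the OTX1 morpholino fos rose by less than these genes, at 84.9 and 76.95 CPM against 64.6 and 68.4 CPM (0.28 ± 0.07, edgeR adjusted p = 0.0130). It was not called without double MO replicate 1 (edgeR adjusted p = 0.118) or OTX1 MO replicate 1 (0.207).

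**Figure D2:**
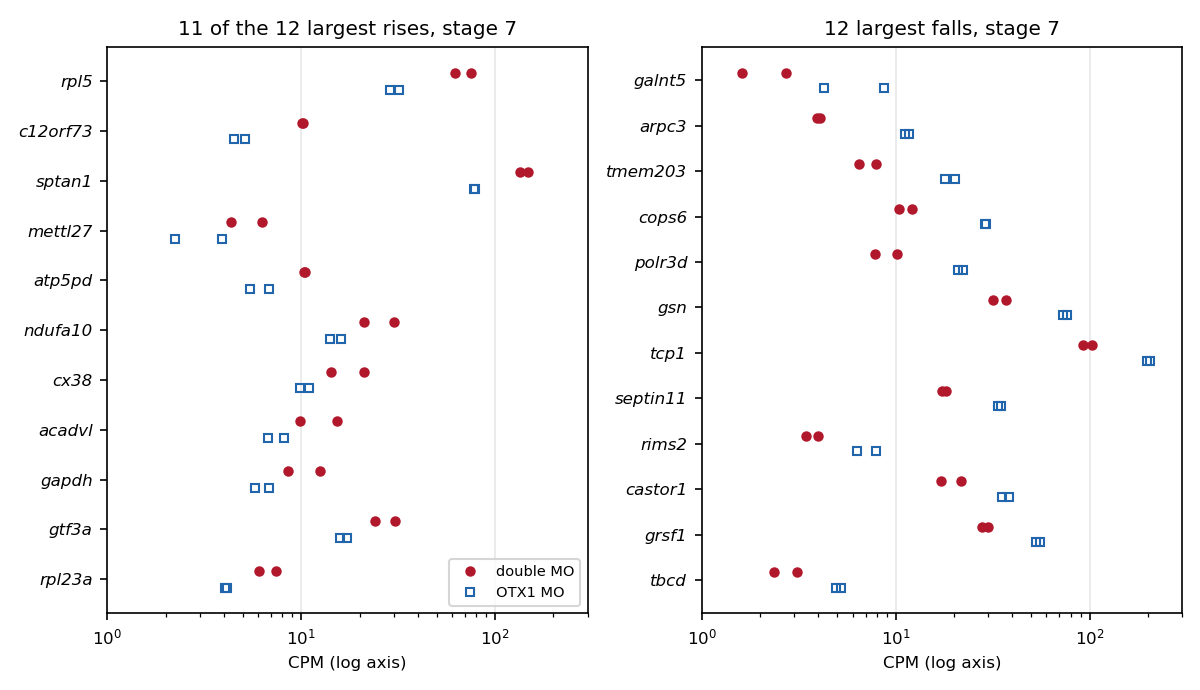
CPM on a log axis of 11 of the 12 genes that rose most (left) and the 12 that fell most (right) by log2 change, among called genes with a gene symbol whose groups did not overlap and whose higher group averaged 5 CPM or more. Filled circles are the 2 double MO libraries and open squares, drawn below them, the 2 OTX1 MO libraries of stage 7. In arpc3 the double MO libraries sit at 3.91 and 4.08 CPM and the OTX1 MO libraries at 11.7 and 11.1 CPM, while in mettl27 and galnt5 the replicates of a group are nearly as far apart as the groups.

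Beyond these sets, rpl5 had the largest rise with a small error. Its product is a protein of the large ribosomal subunit that binds 5S RNA. The double MO libraries held 61.7 and 75.3 CPM and the OTX1 MO libraries 32.1 and 28.7 CPM, a log2 change of 1.17 ± 0.09 (SE; edgeR adjusted p = 5.98e-12), and the call held whichever library was left out. The gene gtf3a, whose product TFIIIA directs transcription of 5S RNA genes, was at 23.9 and 30.4 CPM in double MO against 15.8 and 17.2 CPM in OTX1 MO embryos (0.72 ± 0.12, edgeR adjusted p = 8.18e-05). This call also held whichever library was left out.

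Of the 12 largest rises, 4 further genes encode enzymes or subunits of energy metabolism, for which no list was tested. The complex I subunit ndufa10 was at 21.2 and 29.9 CPM in double MO against 15.96 and 14.2 CPM in OTX1 MO embryos (0.76 ± 0.11, edgeR adjusted p = 1.12e-05), and 0.49 without double MO replicate 2. The ATP synthase subunit atp5pd was at 10.4 and 10.4 CPM in double MO against 6.81 and 5.41 CPM in OTX1 MO embryos (0.76 ± 0.16, edgeR adjusted p = 0.00214), and not called without OTX1 MO replicate 2 (0.112). The fatty acid oxidation enzyme acadvl was at 9.86 and 15.2 CPM against 6.78 and 8.12 CPM, and the glycolytic enzyme gapdh at 8.54 and 12.6 CPM against 5.78 and 6.80 CPM (0.75 ± 0.15 and 0.75 ± 0.18, edgeR adjusted p of 0.00176 and 0.0127). These changes, without double MO replicate 2, were 0.41 and 0.45 and not called (edgeR adjusted p of 0.386 and 0.491), nor were they without OTX1 MO replicate 1 (0.103 and 0.206).

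The maternal gap junction gene cx38 stood at 14.2 and 21.1 CPM in double MO against 10.99 and 9.85 CPM in OTX1 MO embryos (0.76 ± 0.16, edgeR adjusted p = 0.00239). It was 0.45 without double MO replicate 2 and then not called (0.353), nor was it without OTX1 MO replicate 2 (0.0721). The methyltransferase-like gene mettl27 was at 4.32 and 6.30 CPM in double MO against 2.23 and 3.88 CPM in OTX1 MO embryos (0.81 ± 0.23, edgeR adjusted p = 0.0329). Its change was 0.51 without double MO replicate 2 and 0.45 without OTX1 MO replicate 1, with edgeR adjusted p of 0.667 and 0.548, and 1.25 without OTX1 MO replicate 2. Both rises kept their direction whichever library was left out, while their size moved with single libraries.

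Among the other genes that fell, septin11, a cytoskeletal GTPase, was at 17.4 and 18.2 CPM in double MO against 33.9 and 35.1 CPM in OTX1 MO embryos (-0.95 ± 0.09, edgeR adjusted p = 1.22e-09). The synaptic scaffold gene rims2 was at 3.98 and 3.45 CPM in double MO against 6.35 and 7.91 CPM in OTX1 MO embryos (-0.94 ± 0.17, edgeR adjusted p = 3.86e-04). Both calls held whichever library was left out. By fitted change galnt5, a transferase that starts O-linked glycosylation, fell most of the 12, at 2.72 and 1.62 CPM against 4.28 and 8.74 CPM (-1.57 ± 0.41, edgeR adjusted p = 0.0293). It was -0.97 without OTX1 MO replicate 2 and -1.24 without double MO replicate 2, and not called in either case (edgeR adjusted p of 0.435 and 0.417). The tubulin cofactor tbcd, at 2.35 and 3.096 CPM against 4.94 and 5.202 CPM (-0.90 ± 0.27, edgeR adjusted p = 0.0467), was not called when any 1 of the 4 libraries was left out (edgeR adjusted p of 0.201 and 0.125 without double MO replicates 1 and 2, and 0.176 and 0.241 without OTX1 MO replicates 1 and 2).

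Of 21 tested genes for E2F factors, DP partners, pocket proteins and the MuvB complex, 0 were called higher and 0 lower by edgeR, with a median log2 change of -0.00473. The largest fall in it was that of mybl2, a partner of MuvB, at 298 and 320 CPM in double MO against 384 and 362 CPM in OTX1 MO embryos (-0.27 ± 0.09, edgeR adjusted p = 0.109). The pocket protein rb1 was at 156 and 139 CPM in double MO against 165 and 158 CPM in OTX1 MO embryos (-0.13 ± 0.06, edgeR adjusted p = 0.299). In the same list lin54, named after its values were seen, was higher in double MO embryos. It was at 210.6 and 203.6 CPM against 190.2 and 187.2 CPM in OTX1 MO embryos (0.13 ± 0.05, edgeR adjusted p = 0.134). The groups did not overlap in any of these genes, as in 42.2% of all genes tested, and the differences all missed the threshold.

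Of 91 genes of DNA replication, the best known class of E2F targets, 3 rose and 1 fell, where 1.64% and 2.1% of all genes did, and their median log2 change was 0.0255. The single-stranded DNA binding protein rpa1 was at 98.5 and 100.4 CPM in double MO against 71.3 and 67.2 CPM in OTX1 MO embryos (0.52 ± 0.07, edgeR adjusted p = 2.16e-06). The origin recognition subunit orc5 was at 33.8 and 42.5 CPM in double MO against 28.2 and 25.7 CPM in OTX1 MO embryos (0.50 ± 0.10, edgeR adjusted p = 9.61e-04), and ticrr, which loads factors for origin firing, at 124 and 109.7 CPM against 93.1 and 88.4 CPM (0.36 ± 0.07, edgeR adjusted p = 9.33e-04). Both rpa1 and ticrr belong to the 128 genes above. Without double MO replicate 2 orc5 was at 0.33 and not called (edgeR adjusted p = 0.195), nor was it without OTX1 MO replicate 2 (0.0541). The histone chaperone asf1b, named after its value was seen as the only member that fell, was at 79.8 and 84.8 CPM against 104 and 96.7 CPM (-0.29 on the log2 scale). The list had 7 rises and 3 falls without double MO replicate 1, 2 and 0 without double MO replicate 2, 3 and 0 without OTX1 MO replicate 1, and 2 and 1 without OTX1 MO replicate 2.

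Of 66 mitosis genes, 8 rose and 2 fell, where 1.64% and 2.1% of all genes did, with a median log2 change of 0.0328. The spindle checkpoint protein bub3 rose most, at 183 and 178 CPM in double MO against 123 and 109.8 CPM in OTX1 MO embryos (0.63 ± 0.07, edgeR adjusted p = 1.80e-08). The mitotic kinase cdk1 was at 75.1 and 81.8 CPM in double MO against 60.2 and 57.4 CPM in OTX1 MO embryos (0.42 ± 0.09, edgeR adjusted p = 0.00466), while pkmyt1, a kinase that holds cdk1 inactive, was at 39.4 and 41.2 CPM against 53.8 and 53.7 CPM (-0.42 ± 0.08, edgeR adjusted p = 9.70e-04). Both bub3 and pkmyt1 kept their calls whichever library was left out, and cdk1 lost its call without double MO replicate 2 (edgeR adjusted p = 0.139) or OTX1 MO replicate 2 (0.0908). Named after their values were seen, aurkb, bub1b, plk1, plk4, kif2c and cks2 also rose, by log2 changes of 0.18 to 0.36, and the kinesin kif15 fell. There were 10 rises and 5 falls without double MO replicate 1, 3 and 1 without double MO replicate 2, 5 and 1 without OTX1 MO replicate 1, and 2 and 2 without OTX1 MO replicate 2.

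Of 77 tested ribosomal protein genes, 17 rose and 0 fell, where 1.64% of all genes rose, and 72 had a log2 change above 0, with a median of 0.281 against 0 over all genes. Their summed level was 1951 and 2269 CPM in double MO against 1763 and 1786 CPM in OTX1 MO embryos. Besides rpl5, rpl23a rose, at 6.02 and 7.42 CPM in double MO against 4.07 and 4.13 CPM in OTX1 MO embryos (0.71 ± 0.16, edgeR adjusted p = 0.00603), and was not called without double MO replicate 2 (0.251), OTX1 MO replicate 1 (0.0914) or OTX1 MO replicate 2 (0.06). The number of calls changed with each library, and the direction of most members did not. Without double MO replicate 2, 2 genes were called, the median was 0.15 and 68 genes had a change above 0. Without double MO replicate 1 these were 33, 0.403 and 76. With OTX1 MO replicate 1 left out they were 6, 0.279 and 73, and with OTX1 MO replicate 2 left out 4, 0.32 and 74. Within the double MO pair itself the median ribosomal protein gene was 0.25 higher on the log2 scale in replicate 2. Ribosomal protein genes are short. Whether they have near-identical copies was not checked here, and values of single members are uncertain where reads could be assigned to another copy.

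**Figure D3:**
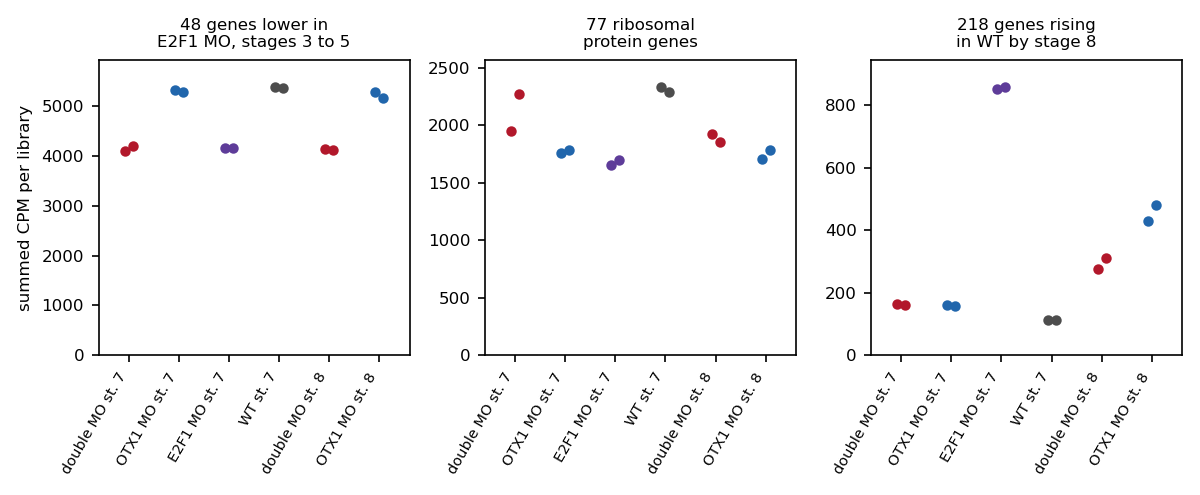
Summed CPM per library (points, 2 per group) of the 48 genes lower in E2F1 MO embryos at stages 3 to 5, of 77 ribosomal protein genes and of 218 genes that appear in WT embryos by stage 8, in double MO, OTX1 MO, E2F1 MO and WT embryos of stage 7 and double MO and OTX1 MO embryos of stage 8. In the left panel the double MO libraries of stage 7 lie at 4099 and 4187 CPM and the OTX1 MO libraries at 5313 and 5277 CPM. In the middle panel the 2 double MO libraries of stage 7 lie apart from each other at 1951 and 2269 CPM, and in the right panel double MO and OTX1 MO coincide at stage 7.

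Of 63 genes of the actin cytoskeleton, 2 rose and 3 fell, where 1.64% and 2.1% of all genes did, with a median of -0.0261. There were 4 rises and 6 falls without double MO replicate 1, and 2 and 2 without double MO replicate 2 or OTX1 MO replicate 1. The falls of arpc3 and gsn and the rise of sptan1 are given above. The other 2, named after their values were seen, were the cytoplasmic actin actg1, at 425 and 490 CPM in double MO against 331 and 322 CPM in OTX1 MO embryos (0.49 on the log2 scale), and moesin, msn, at 55.5 and 54.7 CPM against 72.1 and 67.7 CPM (-0.34). Of 73 genes of the spliceosome and of small nuclear RNA transcription, snapc4 rose and xab2, a spliceosome protein also linked to transcription-coupled repair, fell, at 6.19 and 6.16 CPM in double MO against 12.38 and 10.1 CPM in OTX1 MO embryos (-0.87 ± 0.14, edgeR adjusted p = 1.01e-04). This list had 1 rise and 4 falls without double MO replicate 1, and 1 and 1 with any other of the 4 libraries left out.

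Of 56 genes of the oocyte and germ plasm, 5 rose and 4 fell, where 1.64% and 2.1% of all genes did, with a median of 0.021. The translational regulator cpeb1, which controls polyadenylation of stored mRNA, was at 498 and 517 CPM in double MO against 701 and 694 CPM in OTX1 MO embryos (-0.46 ± 0.08, edgeR adjusted p = 0.00105). The oocyte growth factor gdf9 was at 89.0 and 99.1 CPM in double MO against 126 and 127 CPM in OTX1 MO embryos (-0.43 ± 0.08, edgeR adjusted p = 5.57e-04). Both calls held whichever library was left out. The germ line Tudor protein tdrd1 was at 9.15 and 8.44 CPM against 13.2 and 14.9 CPM (-0.67 ± 0.15, edgeR adjusted p = 0.00539), and was not called without double MO replicate 2 (0.123) or OTX1 MO replicate 2 (0.116). The count of rises was 0 without double MO replicate 2, 1 without OTX1 MO replicate 1, 1 without OTX1 MO replicate 2 and 8 without double MO replicate 1. The count of falls was 4 without double MO replicate 1, 3 without double MO replicate 2, and 3 and 2 without OTX1 MO replicates 1 and 2. The rises, named after their values were seen, were bmp15, patl2, eif4e1b, zp4 and btg4, and eif4enif1 was the fourth fall.

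Of 71 genes of mRNA decay, 2 rose and 2 fell, where 1.64% and 2.1% of all genes did. There were 2 rises and 8 falls without double MO replicate 1, 1 and 0 without double MO replicate 2 or OTX1 MO replicate 1, and 1 and 1 without OTX1 MO replicate 2. The deadenylase scaffold cnot1 was at 90.8 and 87.5 CPM in double MO against 125 and 118 CPM in OTX1 MO embryos (-0.45 ± 0.10, edgeR adjusted p = 0.00984), and was not called without double MO replicate 2 (0.179) or OTX1 MO replicate 1 (0.131). The deadenylation factor btg4 was at 186 and 215 CPM against 162 and 154 CPM (0.35 ± 0.07, edgeR adjusted p = 7.71e-04), and was not called without double MO replicate 2 (0.135). The helicase upf1 of nonsense-mediated decay was at 111 and 98.9 CPM against 86.8 and 90.2 CPM (0.25 ± 0.07, edgeR adjusted p = 0.0447). It was 0.16 without double MO replicate 1 (0.295) and also not called without OTX1 MO replicate 1 (0.322) or 2 (0.143). Of 1694 maternal mRNAs that fall in WT embryos by stage 8, 73 were higher and 40 lower, and of 2730 that stay level 45 were higher and 96 lower, where 1.64% of all genes were higher and 2.1% lower. Without double MO replicate 2 these counts were 26 and 9, and 9 and 25. Without double MO replicate 1 they were 85 and 130, and 96 and 274, and without OTX1 MO replicate 2 14 and 17, and 15 and 33. Without OTX1 MO replicate 1 they were 31 and 12, and 20 and 23. The sign of the difference between rises and falls thus turned with the library left out for the falling mRNAs. One of them, satpa, was at 3.06 and 3.76 CPM in double MO against 1.87 and 1.94 CPM in OTX1 MO embryos (0.84 ± 0.25, edgeR adjusted p = 0.0489), and was not called without double MO replicate 2 (0.511), OTX1 MO replicate 1 (0.290) or 2 (0.221).

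Of 32 p53 response genes 1 rose and 3 fell, where 1.64% and 2.1% of all genes did. There were 1 rise and 3 falls without double MO replicate 1, and 0 and 2 with any other of the 4 libraries left out. The cell death gene bax fell by 0.35 on the log2 scale, and besides plk3 and bax the DNA damage sensor xpc fell, at 12.1 and 13.2 CPM in double MO against 21.7 and 19.5 CPM in OTX1 MO embryos (-0.70 ± 0.11, edgeR adjusted p = 4.79e-05). The cyclin gene ccng2 was at 8.74 and 8.59 CPM against 6.53 and 5.79 CPM (0.49 ± 0.13, edgeR adjusted p = 0.0202), a call lost when any 1 of the 4 libraries was left out (edgeR adjusted p of 0.0531 and 0.135 without double MO replicates 1 and 2, and 0.0688 and 0.262 without OTX1 MO replicates 1 and 2). Of 24 innate immune genes 1 rose and 2 fell. The rise, ifih1 (described with the zygotic genes), was kept without double MO replicate 1 and lost without each of the other 3 libraries, and 1 fall was left without double MO replicate 2. The RNA-editing enzyme adar was at 19.8 and 20.7 CPM in double MO against 35.5 and 37.04 CPM in OTX1 MO embryos (-0.84 ± 0.17, edgeR adjusted p = 0.00314; 0.0528 without double MO replicate 2), and the adaptor myd88 at 38.6 and 41.9 CPM against 58.4 and 57.6 CPM (-0.53 ± 0.09, edgeR adjusted p = 3.45e-04). Of 39 heat-shock and immediate early genes only fos was called (the list had 0 calls without OTX1 MO replicate 1, 2 rises without double MO replicate 1 and 2 without double MO replicate 2), and of 12 tested adult genes and 11 tested histone genes 0 were (edgeR).

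The genes called zygotic here were set by their mRNA level in WT embryos, and transcription itself was not measured. Of 149 genes that appear in WT embryos by stage 7, 1 rose and 0 fell, where 1.64% and 2.1% of all genes did. There were 3 rises without double MO replicate 1, 0 without double MO replicate 2 or OTX1 MO replicate 2, and 1 without OTX1 MO replicate 1. That gene was ifih1, a sensor of double-stranded RNA, at 0.82 and 1.48 CPM in double MO against 0.21 and 0.21 CPM in OTX1 MO embryos (2.42 ± 0.64, edgeR adjusted p = 0.0234). It was not called without double MO replicate 2 (0.380), OTX1 MO replicate 1 (0.203) or 2 (0.187). The summed level of the 149 genes was 387 and 408 CPM in double MO against 396 and 385 CPM in OTX1 MO embryos, and the groups overlapped.

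Of 218 genes that appear in WT embryos by stage 8, 1 rose and 4 fell, where 1.64% and 2.1% of all genes did, with a median of -0.0678, and their sums were 163 and 163 CPM in double MO against 162 and 158 CPM in OTX1 MO embryos. The rise was mettl27, given above, and the smallest fall was that of LOC116406443, named after its values were seen, at 0.24 and 0.53 CPM in double MO against 0.90 and 1.18 CPM in OTX1 MO embryos. The other 3 falls also lack an assigned symbol. LOC101733951 was at 0.03 and 0.14 CPM against 0.54 and 0.35 CPM, LOC116411622 at 0.14 and 0.28 CPM against 0.72 and 0.80 CPM, and LOC101732555 at 0.20 and 0.35 CPM against 0.72 and 1.04 CPM. Their log2 changes were -2.31 ± 0.68, -1.84 ± 0.47 and -1.64 ± 0.41 (edgeR adjusted p of 0.0465, 0.0203 and 0.0136). The floor of 3 counts is 0.102 and 0.106 CPM in the double MO libraries and 0.0903 and 0.104 CPM in the OTX1 MO libraries. LOC101733951 was under it in double MO replicate 1 and near it in double MO replicate 2. LOC116411622 was near it in double MO replicate 1, and the other levels of these genes were low but further above it. The list had 1 rise and 0 falls without double MO replicate 1 or OTX1 MO replicate 2, and 0 and 2 without double MO replicate 2 or OTX1 MO replicate 1. LOC101733951 and LOC116411622 lost their call when any 1 of the 4 libraries was left out (highest edgeR adjusted p of 0.364 and 0.129), and LOC101732555 without all but OTX1 MO replicate 1 (highest 0.210). Of 291 genes that appear by stage 9, 0 were called by edgeR.

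Of the patterning lists, early mesendoderm and organizer genes had 0 rises and 1 fall in 53, epidermis genes 1 rise in 42, neural plate genes 1 fall in 38, mesoderm genes 0 calls in 42, and head and organizer genes linked to OTX factors 1 fall in 34. The calls were osr2, krt18.1, sox11 and tcf7l1, where 1.64% of all genes rose and 2.1% fell. Most members of each list stood under 2 CPM in all 4 libraries, which left little room for a call. The low counts of calls therefore do not show that patterning genes did not respond. Neural plate genes had 2 rises, and genes linked to OTX factors 1, without double MO replicate 1. The kidney and mesoderm factor osr2 had 0 counts in both double MO libraries and 0.15 and 0.28 CPM in OTX1 MO embryos, near the floor, and its call was lost when any 1 of the 4 libraries was left out (highest edgeR adjusted p = 0.261). The keratin krt18.1 was at 171 and 197 CPM in double MO against 142 and 137 CPM in OTX1 MO embryos (0.40 ± 0.08, edgeR adjusted p = 9.20e-04), and was not called without double MO replicate 2 (0.107). The neural factor sox11 was at 92.9 and 91.7 CPM against 115 and 112 CPM (-0.30 ± 0.08, edgeR adjusted p = 0.0187), and the Wnt pathway repressor tcf7l1 at 75.2 and 85.9 CPM against 100.6 and 99.5 CPM (-0.31 ± 0.08, edgeR adjusted p = 0.0133). Of the single libraries, sox11 kept its call only without double MO replicate 1, with adjusted p of 0.186, 0.191 and 0.0867 without OTX1 MO replicate 1, double MO replicate 2 and OTX1 MO replicate 2 (edgeR). The call of tcf7l1 held only without double MO replicate 2, with 0.149, 0.123 and 0.0905 without double MO replicate 1, OTX1 MO replicate 1 and OTX1 MO replicate 2 (edgeR).

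The maternal endoderm determinant vegt was at 471 and 469 CPM in double MO against 484 and 518 CPM in OTX1 MO embryos (-0.09 ± 0.05, edgeR adjusted p = 0.411). The organizer factor sia2, a direct target of maternal Wnt signalling, was at 1.05 and 0.53 CPM against 1.23 and 1.66 CPM (-0.85 ± 0.37, edgeR adjusted p = 0.222). The organizer homeobox gene gsc and the secreted head inducer cer1 had 0 counts in all 4 libraries, and the head homeobox gene otx2 stood at 0.07 and 0.11 CPM in double MO against 0.03 and 0 CPM in OTX1 MO embryos. These 5 genes were named after their values were seen, and the last 3 were at or under the floor in both groups.

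The same comparison at stage 8 uses 4 other libraries, and 431 genes (2.68%) were called there, 203 higher (1.26% of genes tested) and 228 lower (1.42%). Of the 264 genes that rose at stage 7, 255 had the same sign at stage 8 and 119 were called higher. Of the 337 that fell, 326 had the same sign and 123 were called lower, and 0 of the 601 were called in the opposite direction. As a share of the stage 8 calls these were 58.6% of the rises and 53.9% of the falls. Of the 96 genes that kept their call whichever library was left out, all 96 had the same sign at stage 8 and 92 were called there. Across the 601 genes, picked by their change at stage 7, the log2 changes of the stages had a Pearson correlation of 0.612, as a description. Across all 16064 genes the Pearson correlation was 0.0896 and the Spearman correlation 0.281. Of all genes tested, 45.1% had a change above 0 at stage 8 and 48.9% had one below 0.

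Among the named genes, arpc3 at stage 8 was at 4.38 and 4.84 CPM in double MO against 10.8 and 12.5 CPM in OTX1 MO embryos (-1.34 on the log2 scale), and tcp1 at 97.0 and 87.9 CPM against 192 and 195 CPM (-1.06). The level of rpl5 was 84.2 and 79.7 CPM against 35.6 and 41.4 CPM (1.09). At stage 8, 1.26% of all genes tested were called higher and 1.42% lower, which holds for each list below. For the 48 genes lower in early cleavage, 28 were lower and 0 higher at stage 8 with a median of -0.286, and for the 128 higher ones 19 were higher and 0 lower. Of the 77 ribosomal protein genes 4 rose at stage 8, with a median of 0.121. The genes that appear by stage 8 had 51 falls and 0 rises of 218 at stage 8, against 4 falls at stage 7. The test of the difference between the stages called 0 genes in all with edgeR (635 at an unadjusted p under 0.05, and 2 adjusted with DESeq2), so none of these genes was shown to respond differently at stage 7 and stage 8.

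**Figure D4:**
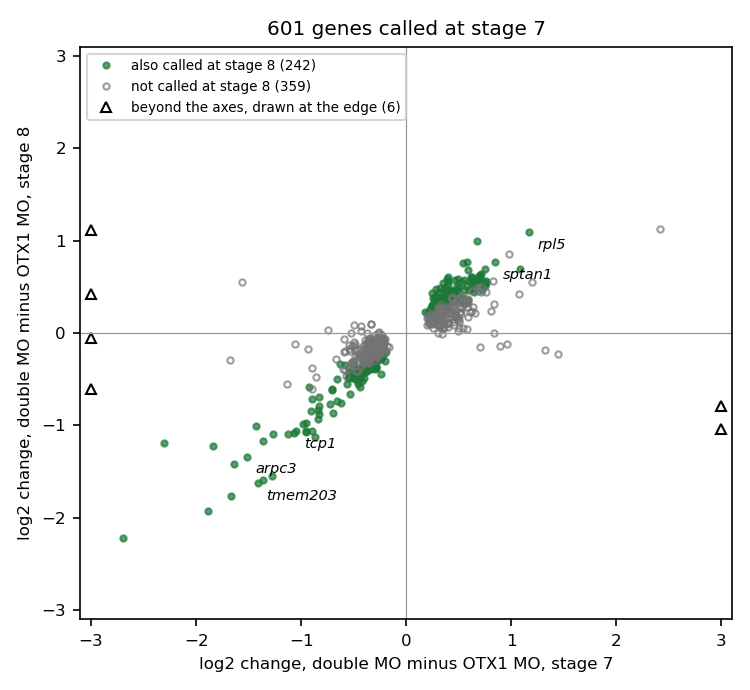
Log2 change of double MO minus OTX1 MO at stage 7 (horizontal) and at stage 8 (vertical) for the 601 genes called at stage 7, filled where the gene was also called at stage 8. Triangles are 6 genes beyond the axes, drawn at the edge. Most points lie in the lower left and upper right, with 326 of 337 falls and 255 of 264 rises keeping their sign, and 242 genes called at both stages.

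The E2F1 morpholino alone was compared with WT embryos at stages 3 to 8 to place these changes. At stage 6, where 313 genes (1.95%) were called in E2F1 MO against WT, 1.18% of all genes higher and 0.772% lower, 38 of the 264 genes that rose here were called higher and 3 lower, and 63 of the 337 that fell were called lower and 2 higher. At stage 7, where 7589 genes (47.2%) were called, 25.3% of all genes higher and 22% lower, 75 of the 264 were higher and 114 lower, and 130 of the 337 were lower and 95 higher. At stage 8, 4202 of all genes were called higher and 3801 lower. Of the 264 rises 153 were higher and 46 lower there, and of the 337 falls 131 were higher and 85 lower. At stage 3, 523 of all genes were called higher and 690 lower. Of the 264 rises 34 were higher and 29 lower there, and of the 337 falls 19 were higher and 53 lower. At stage 4, 347 of all genes were called higher and 157 lower. Among the 264 rises 37 were higher and 4 lower there, and among the 337 falls 11 were higher and 36 lower. At stage 5, 268 of all genes were called higher and 253 lower. Among the 264 rises 42 were higher and 2 lower there, and among the 337 falls 2 were higher and 70 lower. Libraries differ more in E2F1 MO against WT at stage 7 than in double MO against OTX1 MO. The log2 values of E2F1 MO and WT libraries of stage 7 had Pearson correlations across genes of 0.9714 to 0.9716, against 0.9945 to 0.9955 between double MO and OTX1 MO libraries. OTX1 MO and WT libraries of stage 7 correlated at 0.9734 to 0.974, and double MO and WT libraries at 0.9719 to 0.9745. In OTX1 MO against WT 7906 genes were called, and in double MO against WT 8082. The 218 genes that appear by stage 8 summed to 852 and 859 CPM in E2F1 MO against 115 and 115 CPM in WT embryos of stage 7, while double MO and OTX1 MO embryos were at 158 to 163 CPM. E2F1 MO libraries of stage 7 correlated at 0.9746 to 0.9752 with OTX1 MO libraries of stage 8, against 0.9697 to 0.9704 with OTX1 MO libraries of stage 7. Whether E2F1 MO embryos labelled stage 7 matched the other groups in developmental age was not tested, and neither was the part of this in the comparison of the effects.

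The difference between the effects, double MO minus OTX1 MO against E2F1 MO minus WT at stage 7, was called for 5501 genes (34.2%). Of the 601 genes, 396 differed in this way. Of these, 209 were called in opposite directions and 64 in the same direction with unequal size. The other 123 were called in double MO against OTX1 MO but not in E2F1 MO against WT. Requiring a called difference selects for opposite directions. Without that condition, 75 of the 264 rises were called the same way in E2F1 MO against WT and 114 oppositely. Of the 337 falls, 130 were called the same way and 95 oppositely. Several of the leading genes moved the same way with a smaller change beside the OTX1 morpholino. The level of tmem203 was 6.46 and 7.88 CPM in double MO and 17.9 and 20.2 CPM in OTX1 MO embryos, against 1.86 and 1.97 CPM in E2F1 MO and 14.2 and 14.2 CPM in WT embryos, so that the log2 change was -1.41 beside the OTX1 morpholino and -2.89 alone. The difference of the effects was 1.48 for tmem203 and 1.38 for arpc3, and 0.65 for tcp1 (edgeR, called). For castor1 and plk3 the difference was 0.16 in each and not called.

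In E2F1 rescue embryos of stage 6, set against E2F1 MO embryos of that stage, 0 of the 48 cleavage genes were higher and 4 lower, and 0 of the 128 were called either way, where 21 genes (0.131%) were called in all, 0.0436% higher and 0.0872% lower. The 4 genes, named after their values were seen, were lsm12, pskh1, rbbp7 and txlng. At stage 7 the rescue had 7 of the 48 higher and 24 lower than E2F1 MO, with 43.4% of all genes called, 20.1% higher and 23.3% lower. Levels of arpc3 were 3.94 and 4.18 CPM in rescue, 2.39 and 2.83 CPM in E2F1 MO and 18.06 and 20.6 CPM in WT embryos of stage 7. Levels of tcp1 were 57.0 and 51.7 CPM in rescue, 58.0 and 57.0 CPM in E2F1 MO and 185 and 189 CPM in WT embryos. Double MO embryos of stage 7 lay above the rescue level of tcp1, at 92.0 and 102.4 CPM. In both genes the rescue libraries lay far nearer to E2F1 MO than to WT.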

How the data were processed

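Raw read counts per gene, as whole numbers with no normalization, and the length of each gene were deposited by the authors in 1 table. Per the labels' protocols the mRNA kit kept strand. The submitters' processing notes list fastp, STAR 2.7.0e, featureCounts 2.0.1 and deepTools. Genome build, annotation and strand setting were not given in the sources used here, which leaves overlapping genes, antisense genes and near-identical copies uncertain. RefSeq's UCB_Xtro_10.0 annotation held 26459 of the 28778 names and served for names alone. Promoter motifs were planned and not run, since no sequence was used here.

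The filter filterByExpr (minimum count of 10) left 16064 genes. The quasi-likelihood fit of edgeR 4.0.16 (limma 3.58.1, R 4.3.3) took all 44 libraries, 1 mean for each of 22 groups, TMM factors and robust dispersion. It had 22 residual degrees of freedom and a biological coefficient of variation of 6.11%. Benjamini-Hochberg adjustment ran over the genes of each comparison, with calls under 0.05. The SE beside a log2 change is its absolute size divided by the square root of the F statistic of the test. It was not estimated between the replicates of the compared groups. The scripts were tested on simulated counts. CPM are TMM-scaled, and the floor is 3 counts per library, which like any interval covers counting error only. Replicates of each group compared differed by more than sampling noise, with a chi-square of 1.4 to 13.6 per gene.

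Genes were named by a rule: both targets, the 12 called genes with a symbol that rose most and the 12 that fell most (groups not overlapping, higher group averaging 5 CPM or more), and at most 3 called genes per list. The values of 1 gene that the rule names are not reported here. Zygotic lists hold genes under 1 CPM at WT stages 3, 4 and 5 that reached 2 CPM and rose by stage 7, 8 or 9. Maternal lists hold genes of 10 CPM or more at WT stage 3 that fell 2-fold or more by stage 8, or changed by under 0.5 on the log2 scale. The comparison, lists and rules were chosen with earlier results of these data known. Alternatives were other scaling, no filter, fewer libraries in the fit, dispersion without the robust option, a replicate block, DESeq2 1.42.0 and leaving out each library.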

Additional observations from a re-analysis of the deposited data

Results flagged for a closer look

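For 19 of the 55 named genes, double MO against OTX1 MO and E2F1 MO against WT at stage 7 were both called and in opposite directions, and the difference between the effects was itself called by edgeR. Values are given for 18 of them. Of the 18, only c12orf73, ndufa10 and rims2 kept their call in double MO against OTX1 MO whichever library of that comparison was left out. For 12 others the directions were the same and the sizes differed. Requiring a called difference selects for opposite directions. The values below are the difference of the log2 changes, (double MO minus OTX1 MO) minus (E2F1 MO minus WT). E2F1 MO and WT libraries of stage 7 are less alike than double MO and OTX1 MO libraries. So are OTX1 MO and WT libraries of that stage, which correlated at 0.9734 to 0.974. E2F1 MO libraries of stage 7 correlated more with OTX1 MO libraries of stage 8 (0.9746 to 0.9752) than of stage 7 (0.9697 to 0.9704). The part of this in the differences was not tested.

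The genes c12orf73, atp5pd, ndufa10, gapdh and rpl23a were higher in double MO than in OTX1 MO and lower in E2F1 MO than in WT embryos. The difference was 1.68 for c12orf73, 1.33 for atp5pd, 1.51 for ndufa10, 3.44 for gapdh and 1.94 for rpl23a. For gapdh the levels were 8.54 and 12.6 CPM in double MO and 5.78 and 6.80 CPM in OTX1 MO, against 9.64 and 10.99 CPM in E2F1 MO and 68.5 and 64.6 CPM in WT embryos, so that the WT libraries were the highest of these groups.

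The genes krt18.1 (0.88), btg4 (1.08), upf1 (0.60), fos (0.59), ifih1 (6.097) and satpa (2.08), the last a maternal mRNA that falls in WT embryos, were higher in double MO than in OTX1 MO and lower in E2F1 MO than in WT embryos. The genes sox11 (-1.38), tcf7l1 (-1.13) and rims2 (-1.79) were lower in double MO and higher in E2F1 MO.

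The zygotic genes LOC101733951 (-7.59), LOC116411622 (-9.08) and LOC101732555 (-6.76) were also lower in double MO and higher in E2F1 MO. LOC101732555 stood at 28.7 and 27.7 CPM in E2F1 MO against 0.79 and 0.82 CPM in WT embryos, and at 0.20 and 0.35 CPM in double MO against 0.72 and 1.04 CPM in OTX1 MO embryos. For osr2 the fitted difference was -8.16, which is no bound because double MO libraries held 0 counts and the other groups at most 0.28 CPM.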

How the results depend on the processing

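The count of 601 called genes moved to 991 without a filter on low counts, to 161 with the 4 libraries alone, and ranged from 172 to 1270 without each library. RLE factors, total counts alone, the fit of stages 7 and 8, dispersion without the robust option and DESeq2 gave 609, 593, 717, 585 and 866. Whether the replicate numbers pair the samples is not known. The replicate differences of double MO and OTX1 MO, from 2 pairs of libraries, correlated at 0.0182 across genes. That value cannot decide it, because the double MO difference ran with gene length. A replicate block gave 739 calls in the full fit and 194 with the 4 libraries alone. The difference between stages 7 and 8, with 0 calls, had 34 without a filter, 1 without the robust option, 2 with DESeq2, and 0 to 36 without each library. The stage 8 count of 431 ranged from 213 to 282 without each library. The counts for the difference from E2F1 MO against WT, for E2F1 MO against WT and for rescue against E2F1 MO stayed within 1.5 times under every alternative run. Rescue calls were 37.2% higher with total counts alone, against 46.3%. Of the 53 called named genes 0 reversed, and 31 to 44 kept their call without each library. The change of otx1, not called, reversed to -0.0078 without double MO replicate 2 and was 0.313 without double MO replicate 1. Causes were not tested. Low genes, such as the zygotic ones, are limited by depth.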
